A study of Mus musculus with 8 samples.

Results

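The mRNAs of 9 enzymes and enzyme subunits of the tricarboxylic acid (TCA) cycle were measured in cultured mouse CD8+ T cells with or without GC7. The 9 genes were Cs, Idh3a, Idh3b, Idh3g, Ogdh, Sucla2, Suclg1, Fh1 and Mdh2, found by symbol among 55536 annotated genes, by a rule that uses no measured value, although the set was chosen with earlier results of these data known. All 9 were among the 11189 genes with more than 3 CPM (counts scaled to library size) in at least 4 libraries, which were the genes tested. GC7 lowered 4 of the 9 mRNAs by 11.1% to 15.9% (Idh3g, Sucla2, Fh1 and Mdh2), beside 29.0% of all tested genes called lower. None of the 9 rose, beside 30.4% of all tested genes, and no change reached 2-fold. Idh3g kept its call under every alternative run, Sucla2 under all but scaling to library totals, and the calls of Fh1 and Mdh2 were lost with some libraries left out, with library totals, without a filter and under the replicate block, and that of Mdh2 also with filterByExpr.

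Lymph node cells came from OT-I mice on a C57BL/6 and Rag1-deficient background, 5 to 12 weeks of age, whose T cells carry 1 transgenic receptor for the ovalbumin peptide SIINFEKL. All cells were activated with 100 nM SIINFEKL for 2 days and expanded for 2 days in 20 ng/mL recombinant human IL-2, with 10 µM GC7 in the GC7 group and the acetic acid vehicle in the Mock group. Each group had 4 mRNA-seq libraries made from extracted total RNA, described in the study's methods as biological replicates. GC7 is a spermidine-like inhibitor of deoxyhypusine synthase, the enzyme that starts the hypusine modification of the translation elongation factor eIF5a, and because it competes with spermidine its effects need not run through eIF5a alone. The counts speak to changes in mRNA level and not to changes in the making of protein.

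The TCA cycle runs in the mitochondrial matrix, where it oxidises the acetyl group of acetyl-CoA to carbon dioxide and passes electrons to the respiratory chain. It also supplies citrate for lipid synthesis and oxaloacetate and 2-oxoglutarate for amino acid synthesis. Activated T cells combine high glycolysis with an active cycle, which they feed with pyruvate and glutamine.

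Total counts per library lay between 20045041 and 25284730 in Mock and between 17528776 and 23449164 in GC7, with no difference beyond the spread between libraries (two-sided exact permutation test, p = 0.429). The share of counts from the mitochondrial genome was 1.83% to 1.94% in Mock and 0.194% to 0.225% in GC7, and the groups did not overlap. The part of this share in the levels of the members, which are nuclear genes, was not tested. The 9 CD8 T cell markers examined, among them Cd3e, Cd8a and Lck, were all tested, and their summed level was 5028 to 5905 CPM in Mock and 4166 to 4517 CPM in GC7, with 7 of the 9 called lower and 1 higher, beside 29.0% and 30.4% of all tested genes. Of the B cell markers, Ms4a1 and Pax5 had 0 counts in every library, whereas Cd79b had 69 to 223 counts and was called lower, and the summed level of the list was 7.02 to 10.1 CPM in Mock and 4.63 to 5.93 CPM in GC7. None of the 6 myeloid markers reached the tested set, and their summed level was 3.01 to 6.04 CPM in Mock and 0.536 to 1.23 CPM in GC7. This sum was mostly Fcer1g, with 11 to 134 counts, and the other 5 had at most 8 counts in any library. The part of these marker levels in the results was not tested. In such bulk RNA, fewer cells of a type and less RNA per cell cannot be told apart.

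The start regions of 3 members are shown as examples of what lies there. Idh3g, the member with the lowest adjusted p, starts 131 bases from Ssr4 on the opposite strand, and the stretch printed for it is all that separates the 2 genes. Mdh2 also has a close neighbour on the opposite strand, Styxl1, whose start is 95 bases away and which was not among the tested genes. Sucla2 and Ogdh are shown as the members with a match to NRF1 and to the E-box, motifs of factors known to act on genes of mitochondria and of growth. The stretches of Sucla2 and Ogdh lie beside RefSeq starts inside the gene spans given further on, not at the outer starts of those spans. Sequences are from RefSeq (GRCm38.p6), 5′ to 3′, with matches in capitals.
Idh3g, chrX:73786898-73787027, minus strand, between the start of Ssr4 and the start of Idh3g, YY1 motif in capitals: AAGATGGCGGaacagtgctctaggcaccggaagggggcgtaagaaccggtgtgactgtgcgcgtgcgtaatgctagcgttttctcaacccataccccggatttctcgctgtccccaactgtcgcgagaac
Sucla2, chr14:73552759-73552788, plus strand, NRF1 motif in capitals: ctgcgtctctGCGCCTGCGCggtgcccagg
Ogdh, chr11:6292048-6292077, plus strand, E-box in capitals: gtcgcggcgtgtCACGTGgaccggtcgctc

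Promoter windows of 300 bases (250 before and 50 after each RefSeq start) were found for 8 of the 9 genes, in 13 windows, and Idh3a had none in the table used. Motifs were read on both strands. The NRF1 motif, of which the capitals printed for Sucla2 are a match, was in the window of 1 member, Sucla2, and in 4.6% of all 32851 windows. The E-box CACGTG was in windows of Ogdh only, against 7.15% of all windows, and the ERR site AAGGTCA likewise in Ogdh only, against 4.72%. The ETS letters CCGGAAGT were in no member window and in 3.89% of all windows. Among motifs added after the sequences had been read, the YY1 letters, those in capitals for Idh3g, were in Idh3g only (0.852% of all windows) and the GC box GGGCGG in Cs, Ogdh, Sucla2, Fh1 and Mdh2 (35.7% of all windows). No single motif of those searched was in every member with a window, and a match is a description of letters, not a site of binding.

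In the fit across all 11189 genes, 4 of the 9 members passed the test at an adjusted p under 0.05 and were lower in GC7, whereas 29.0% of all tested genes were called lower. In these 4 every GC7 library was below every Mock library, as in 27.5% of all tested genes, and no member was apart in the other direction, against 28.1%. None was called higher, by edgeR, DESeq2 or limma-voom or at an unadjusted edgeR p under 0.05, against 30.4% of all tested genes called higher. By the stricter rule of an adjusted p under 0.01 and more than a 2-fold change, 0 members were called lower and 0 higher by all these tools, also at an unadjusted p under 0.05, against 5.3% and 3.17% of tested genes. The 9 log2 fold changes ran from -0.25 to 0.01 with a median of -0.13, and 8 were below zero (with library totals in place of the TMM scaling, a median of -0.03 and 5 below zero), beside a median of 0.02 over all tested genes. The median size of the change, without its sign, was 0.13 for the members and 0.29 for all tested genes, and 56.2% of tested genes had a larger change than the largest among the members. The summed level of the 9 mRNAs was 1337 ± 35.9 CPM in Mock and 1240 ± 26.7 CPM in GC7 (SD, n = 4 each), with ranges of 1306 to 1385 and 1207 to 1271 that did not overlap. With library totals the ranges of the sum were 1274 to 1313 CPM in Mock and 1241 to 1305 CPM in GC7 and overlapped.

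**Figure D1:**
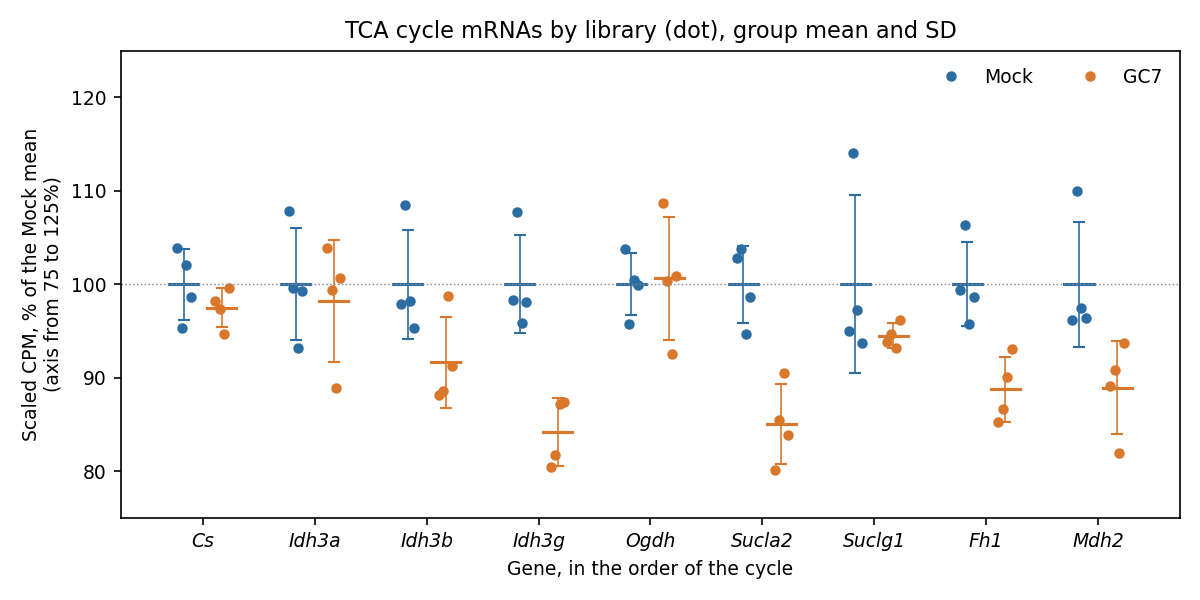
Level of each of the 9 mRNAs in each library, as a percentage of the Mock mean of the gene (the vertical axis does not start at 0), with genes in the order of the cycle. Dots are libraries (blue, Mock; orange, GC7), short lines are group means and bars are SD (n = 4); the orange and blue dots are apart for Idh3g, Sucla2, Fh1 and Mdh2 and mix for the other genes.

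Cs encodes citrate synthase, which joins acetyl-CoA and oxaloacetate to open the cycle (ENSMUSG00000005683, GRCm38 chr10:128337734-128362479, plus strand). Its scaled level was 318, 292, 313 and 302 CPM in Mock replicates 1 to 4 and 301, 298, 290 and 305 CPM in GC7 replicates 1 to 4. The 2 groups overlapped, and the lowest and the highest libraries differed by little in either. The log2 fold change was -0.04 (SE 0.0559, 95% interval -0.16 to 0.09, edgeR adjusted p = 0.593), so a change of more than these bounds was not seen at this precision. Cs has 2 near-identical copies, Csl and the pseudogene Gm48254, neither of which had more than 2 counts in any library.

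Of the 3 subunits of the NAD-dependent isocitrate dehydrogenase, IDH3, 1 passed the test. The differences between them did not pass, in an exact test that can hardly pass after adjustment (the ratios are given further on). Idh3a, the catalytic alpha subunit (ENSMUSG00000032279, chr9:54586334-54604661, plus strand), was at 88.8, 82.1, 76.8 and 81.8 CPM in Mock and 85.6, 81.9, 73.2 and 83.0 CPM in GC7. The libraries overlapped throughout, and the log2 fold change was -0.03 (SE 0.0683, 95% interval -0.17 to 0.12, adjusted p = 0.768). Idh3b, the beta subunit (ENSMUSG00000027406, chr2:130279309-130284547, minus strand), was at 143, 159, 144 and 139 CPM in Mock and 129, 130, 144 and 133 CPM in GC7. Here 3 GC7 libraries were below all Mock libraries and GC7 replicate 3 was among them, with a log2 fold change of -0.13 (SE 0.0637, 95% interval -0.26 to 0.01, adjusted p = 0.107). Without GC7 replicate 3 the value was -0.16 with an adjusted p of 0.0427. Idh3b shares 5 exonic bases of 3422 with Nop56 on the opposite strand.

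Idh3g, the gamma subunit, which with the beta subunit regulates the enzyme (ENSMUSG00000002010, chrX:73778963-73786897, minus strand), had the largest fall of the 9, close to that of Sucla2. Without Mock replicate 2 the order was the other way, with -0.22 for both to 2 decimals, as it was without GC7 replicate 2, with -0.23 for both. It was at 131, 144, 128 and 131 CPM in Mock and 107, 109, 116 and 117 CPM in GC7. Every GC7 library was below every Mock library, with GC7 replicates 1 and 2 the lowest. The mean fell from 133.6 ± 6.98 to 112.4 ± 4.84 CPM (SD, n = 4 each), a log2 fold change of -0.25 (SE 0.0605, 95% interval -0.38 to -0.12, adjusted p = 0.00362). Ssr4, which encodes a subunit of the translocon-associated protein complex and starts at the other end of the sequence printed for Idh3g, was at 101.8 ± 13.2 CPM in Mock and 99.4 ± 2.41 CPM in GC7. Its log2 fold change was -0.04 (SE 0.0822, adjusted p = 0.732), and the difference between the 2 neighbours was not tested.

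Ogdh encodes the E1 component of the 2-oxoglutarate dehydrogenase complex, which turns 2-oxoglutarate into succinyl-CoA (ENSMUSG00000020456, chr11:6291633-6356642, plus strand). It was at 166, 153, 161 and 160 CPM in Mock and 174, 161, 148 and 162 CPM in GC7. The GC7 libraries lay on both sides of the Mock range. The log2 fold change was 0.01 (SE 0.0624, 95% interval -0.13 to 0.15, adjusted p = 0.909), the only value above zero among the 9.

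Succinyl-CoA ligase makes succinate and a nucleoside triphosphate, with an alpha subunit, Suclg1, and 1 of 2 beta subunits, Sucla2 for ATP or Suclg2 for GTP. Sucla2 (ENSMUSG00000022110, chr14:73525319-73596142, plus strand) was at 58.0, 58.5, 53.4 and 55.6 CPM in Mock and 45.2, 48.2, 51.0 and 47.3 CPM in GC7. The groups did not overlap, although GC7 replicate 3 came close to Mock replicate 3. The mean fell from 56.4 ± 2.36 to 47.9 ± 2.41 CPM (SD, n = 4 each), a log2 fold change of -0.24 (SE 0.0632, 95% interval -0.37 to -0.10, adjusted p = 0.00666). Suclg1 (ENSMUSG00000052738, chr6:73248382-73276911, plus strand) was at 57.9, 69.5, 59.2 and 57.1 CPM in Mock and 57.2, 57.7, 56.8 and 58.6 CPM in GC7. Mock replicate 2 stood above the other 7 libraries, which were close together. The log2 fold change of Suclg1 was -0.08 (SE 0.0712, 95% interval -0.24 to 0.07, adjusted p = 0.34).

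Fh1 encodes fumarate hydratase, which turns fumarate into malate (ENSMUSG00000026526, chr1:175600374-175625635, minus strand). It was at 75.1, 80.3, 72.3 and 74.5 CPM in Mock and 64.5, 65.5, 68.0 and 70.3 CPM in GC7. The groups did not overlap, and the mean fell from 75.6 ± 3.38 to 67.1 ± 2.62 CPM (SD, n = 4 each). The log2 fold change was -0.17 (SE 0.0597, 95% interval -0.30 to -0.04, adjusted p = 0.0253). The call was lost without GC7 replicate 1 (adjusted p = 0.0868) and without GC7 replicate 2 (0.0788).

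Mdh2 encodes the mitochondrial malate dehydrogenase, which restores oxaloacetate and closes the cycle (ENSMUSG00000019179, chr5:135778480-135790398, plus strand). It was at 303, 347, 307 and 304 CPM in Mock and 281, 286, 258 and 295 CPM in GC7. The groups did not overlap, and Mock replicate 2 was far above the other Mock libraries. The mean was 315.1 ± 21.2 CPM in Mock and 280.2 ± 15.7 CPM in GC7 (SD, n = 4 each), a log2 fold change of -0.17 (SE 0.0676, 95% interval -0.32 to -0.02, adjusted p = 0.0468). The call was just past the threshold and was kept only when Mock replicate 1 was the library left out (adjusted p = 0.0469). Without any other single library the adjusted p was between 0.0538 and 0.109, and without Mock replicate 2 the log2 fold change was -0.12 (adjusted p = 0.0619). The call was also lost with filterByExpr, another filter on low counts (adjusted p = 0.0526).

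These changes are relative to the bulk of the transcriptome, which the TMM scaling holds level. With library totals in place of TMM factors the median of all tested genes moved from 0.02 to 0.11, and the calls over all genes moved from 3246 lower and 3406 higher to 2592 lower and 4305 higher. On that scale 1 of the 9 members was called, Idh3g (log2 fold change -0.15, adjusted p = 0.0284). Sucla2 was then at -0.14 (adjusted p = 0.0635), Fh1 at -0.08 (0.245) and Mdh2 at -0.07 (0.32), and Cs, Idh3a and Suclg1 changed sign to 0.06, 0.07 and 0.01.

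Levels were set in order after division by the total exon length of each gene, as CPM per kb. In Mock, Mdh2 was first at 88.5 ± 5.94 CPM per kb, followed by Cs at 53.0 ± 2.01, Idh3g at 49.5 ± 2.59 and Idh3b at 42.7 ± 2.50 (SD, n = 4). Ogdh followed at 29.4 ± 0.971, Fh1 at 22.3 ± 0.997, Idh3a at 16.3 ± 0.974, Sucla2 at 14.1 ± 0.591 and Suclg1 at 13.2 ± 1.25 CPM per kb. The libraries of neighbours in this order overlapped for Cs with Idh3g and for Sucla2 with Suclg1, and for no other pair of neighbours. In GC7 the first 7 genes kept these ranks, from Mdh2 at 78.7 ± 4.40 to Idh3a at 16.0 ± 1.06 CPM per kb, and the last pair, Suclg1 at 12.5 ± 0.171 and Sucla2 at 12.0 ± 0.606, stood in the other order with overlapping libraries. Idh3g, at 41.6 ± 1.79, there overlapped with Idh3b, at 39.2 ± 2.09, and no longer with Cs. IDH3 holds more alpha than beta or gamma subunits as a protein, while its alpha mRNA was the lowest of the 3 per kb in both groups. The exon length counts exons of every annotated transcript, so an order between genes with different unused exons is approximate.

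The profiles of the members over the 8 libraries were compared as the root mean square (RMS) difference of their log2 CPM, each centred on its own mean. The nearest pair was Idh3g and Fh1, with an RMS difference of 0.0413, and the nearest to Sucla2 was Idh3g at 0.0467. Cs was nearest to Ogdh at 0.0521, and Idh3a to Ogdh at 0.0541. The farthest pair was Idh3g and Ogdh, at 0.172. The tested genes outside the lists with profiles nearest to the mean of the members were Kcmf1 (RMS difference 0.0147, log2 fold change -0.13), Rbbp4 (0.0196, -0.10) and Lonp2 (0.02, -0.12). None of these 3 passed the test.

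**Figure D2:**
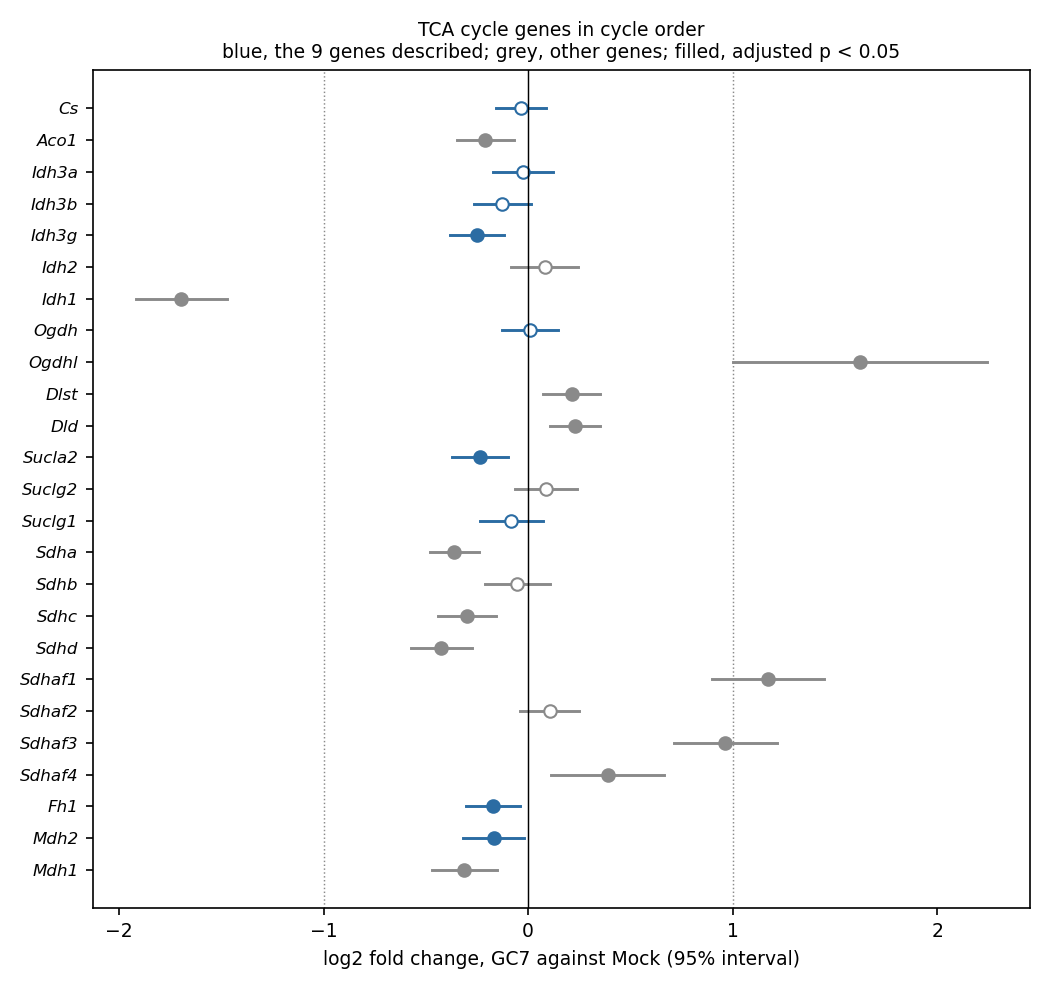
Log2 fold change of GC7 against Mock for 25 tested genes of the cycle, from citrate synthase at the top to malate dehydrogenase at the bottom. Blue marks the 9 members and grey the other genes, bars are 95% intervals, and filled circles passed the test at an adjusted p under 0.05; the members lie between -0.25 and 0.01, and Idh1, Ogdhl and Sdhaf1 lie beyond the dotted lines at a 2-fold change.

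The other genes of the cycle, a list of 19 subunits, assembly factors and counterparts outside the mitochondria, included genes called in both directions, as did all tested genes. Of the 17 tested (Dhtkd1 and Csl were not), 7 fell (41.2%, beside 29.0% of all tested genes), 6 rose (35.3%, beside 30.4%) and 4 did not pass. Without Ogdhl and Sdhaf1, which passed the filter through the GC7 group, 4 of 15 rose (26.7%). The median log2 fold change was 0.08, and with 1 library left out it was between -0.00278 (without GC7 replicate 3) and 0.0833 (without Mock replicate 3). With library totals the median was 0.17. Idh1, the cytosolic NADP-dependent isocitrate dehydrogenase, fell from 24.5 ± 1.88 to 7.58 ± 0.935 CPM (log2 fold change -1.70, SE 0.102, adjusted p = 4.86e-08). Idh2, its mitochondrial counterpart, was at 42.4 ± 2.54 CPM in Mock and 44.9 ± 3.51 CPM in GC7 (log2 fold change 0.08, adjusted p = 0.372). The log2 fold change of Idh2 was 0.04 without Mock replicate 1 and 0.17 with library totals. Aco1, the cytosolic aconitase, which turns citrate into isocitrate, fell by 0.21 on the log2 scale (adjusted p = 0.0141), a call lost with library totals (adjusted p = 0.171) and without a filter (0.0613).

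Of the other parts of the 2-oxoglutarate dehydrogenase complex, Dlst, the E2 component, rose by 0.21 on the log2 scale (adjusted p = 0.0121), and Dld, the E3 component that pyruvate dehydrogenase also uses, rose by 0.23 (adjusted p = 0.00373). Ogdhl, a relative of Ogdh, rose from 1.57 ± 0.451 to 4.81 ± 1.78 CPM (log2 fold change 1.62, SE 0.285, adjusted p = 3.86e-04). It was under 3 CPM in all Mock libraries and passed the filter only through the GC7 group, where it is high, so a rise was favoured by the filter. Suclg2, the GTP-forming beta subunit, was at a log2 fold change of 0.09 (adjusted p = 0.307). Its value was 0.03 without Mock replicate 2 and 0.18 with library totals.

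Succinate dehydrogenase, which is also complex II of the respiratory chain, had 3 of its 4 subunits called lower, beside 29.0% of all tested genes. Sdha, which binds the flavin, was at -0.36 on the log2 fold change scale (adjusted p = 1.35e-04), and the membrane anchors Sdhc and Sdhd were at -0.30 (0.00188) and -0.42 (1.85e-04). Sdhb, the iron-sulfur subunit, was at -0.05 (adjusted p = 0.546), and at 0.04 with library totals. Of its 4 assembly factors, 3 passed the test as higher, beside 30.4% of all tested genes. Sdhaf1 rose from 2.81 ± 0.353 to 6.36 ± 0.152 CPM (log2 fold change 1.17, SE 0.126, adjusted p = 7.46e-06), Sdhaf3 by 0.96 (1.94e-05) and Sdhaf4 by 0.39 (0.0188), whereas Sdhaf2 was at 0.11 (0.185). Sdhaf4 did not pass without Mock replicate 1, 3 or 4 (adjusted p = 0.0542 to 0.0624). Conversely, Sdhaf2 passed as higher with library totals (log2 fold change 0.20, adjusted p = 0.014) and without Mock replicate 2 (0.14, adjusted p = 0.0486). Sdhaf1 was above 3 CPM in only 1 Mock library and likewise passed the filter through the GC7 group. Of the 3 factors, means in Mock were 2.81 to 5.51 CPM, and 1733 of the 2490 exonic bases of Sdhaf1 lie opposite a gene with 0 counts. Mdh1, the cytosolic malate dehydrogenase, was at -0.31 (adjusted p = 0.00291).

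**Figure D3:**
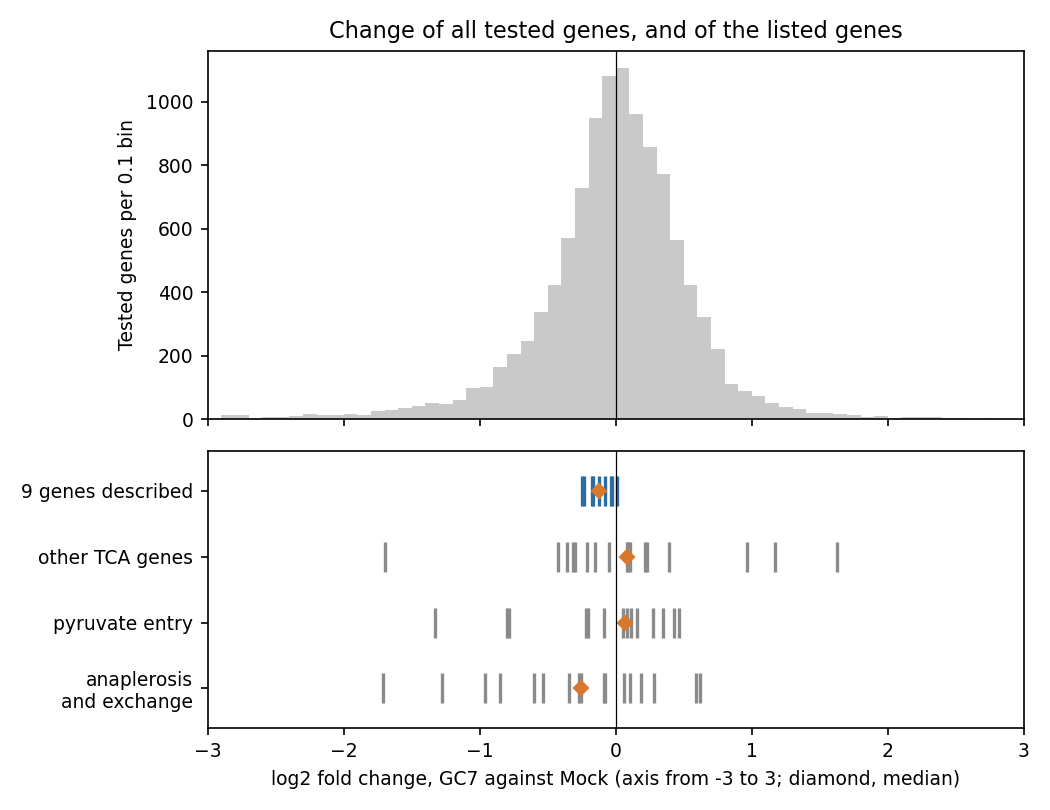
Histogram of the log2 fold changes of the 11189 tested genes (top, genes per bin of 0.1, with 107 genes beyond the axis), and each tested gene of the 4 lists as a tick with the list's median as a diamond (bottom). The 9 members, with a median of -0.13, cluster near zero, while the other lists reach beyond -1.

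Of 16 genes for the entry of pyruvate, 14 were tested, with 4 lower (28.6%, beside 29.0% of all tested genes) and 4 higher (28.6%, beside 30.4%). Their median log2 fold change was 0.07. It was -0.01 without Mock replicate 4, 0.12 without GC7 replicate 1 and 0.16 with library totals. Pdk1, a kinase that inhibits pyruvate dehydrogenase, was the only gene of the 14 past the stricter rule. It fell from 235.6 ± 12.3 to 93.7 ± 7.36 CPM (log2 fold change -1.33, SE 0.0703, adjusted p = 1.70e-08). Of 20 genes that fill, drain or exchange the intermediates, 17 were tested, with 9 lower (52.9%, beside 29.0%) and 4 higher (23.5%, beside 30.4%). Their median was -0.26, and -0.16 with library totals. Me2, the mitochondrial malic enzyme that makes pyruvate from malate, fell from 304.8 ± 5.05 to 93.0 ± 9.72 CPM (log2 fold change -1.71, SE 0.0759, adjusted p = 3.70e-09). Pcx, pyruvate carboxylase, which makes oxaloacetate from pyruvate, fell from 109.1 ± 3.18 to 44.9 ± 8.85 CPM (log2 fold change -1.28, SE 0.116, adjusted p = 1.68e-06).

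Whether subunits of 1 enzyme, or enzymes of 1 reaction or branch point, kept their relative mRNA levels was examined in 10 pairs by a two-sided exact permutation test of 4 against 4 libraries, for which 0.0286 is the smallest possible p. No pair passed after adjustment over the 10 (smallest adjusted p = 0.0714), and 4 reached the smallest p before it. Even a pair with fully separated groups could pass this adjustment only if most of the pairs were also fully separated. Not passing therefore does not show that a ratio was kept. In the 4 pairs at the smallest p the libraries of the groups did not overlap. The log2 ratio of Idh3b to Idh3g was 0.12, 0.14, 0.17 and 0.09 in Mock and 0.26, 0.25, 0.31 and 0.19 in GC7, a difference of 0.12. The log2 ratio of Sucla2 to Suclg2 was 0.09, 0.34, -0.07 and 0.11 in Mock and -0.31, -0.17, -0.09 and -0.26 in GC7, a difference of -0.32. It was above zero in 3 of 4 Mock libraries and below zero in all 4 GC7 libraries. Ratios of CPM carry no correction for length, so zero does not mark equal numbers of molecules.

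The log2 ratio of Ogdh to Dlst was 0.82, 0.78, 0.74 and 0.77 in Mock and 0.56, 0.61, 0.57 and 0.55 in GC7, a difference of -0.20, with little spread in either group. The log2 ratio of Cs to Acly, the cytosolic enzyme that splits exported citrate, was -0.63, -0.48, -0.59 and -0.64 in Mock and 0.13, 0.15, 0.39 and 0.26 in GC7, a difference of 0.82. Acly itself was at a log2 fold change of -0.85 (SE 0.0832, adjusted p = 3.23e-06 by edgeR), whereas Cs was at -0.04. The other 6 pairs had exact p values from 0.0571 to 0.429 and overlapping libraries. Among them Idh3a to Idh3g differed by 0.22 (exact p = 0.0571) and Mdh2 to Mdh1 by 0.14 (exact p = 0.143). The difference for Mdh2 to Mdh1 was 0.23 without GC7 replicate 3 and 0.09 without GC7 replicate 2.

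**Figure D4:**
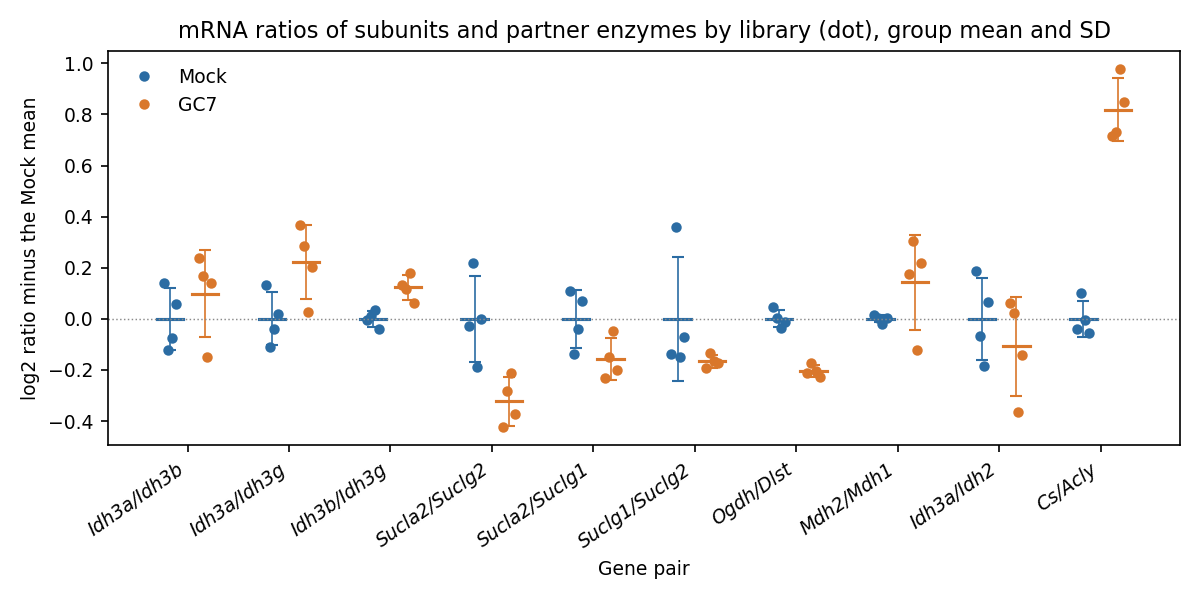
Log2 ratio of 10 gene pairs in each library, minus the Mock mean of the pair. Dots are libraries (blue, Mock; orange, GC7), lines are group means and bars are SD (n = 4); the groups are apart for Idh3b/Idh3g, Sucla2/Suclg2, Ogdh/Dlst and Cs/Acly, with the largest difference, 0.82, for Cs/Acly.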

How the data were processed

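Messenger RNA was sequenced from 8 libraries, grouped as Mock or GC7 by the sample labels. The authors trimmed paired reads with Cutadapt, aligned to GRCm38 (STAR) and summed reads by gene (featureCounts), and deposited raw counts, 1 table per library, without normalisation or pooling. The strand setting and the handling of reads with several matches are not given in the sources used here, so near-identical copies (BLAST matches of at least 200 bases and 90% identity) and overlapping genes are named beside a member. All 55536 gene identifiers matched the Ensembl 96 annotation.

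Genes above 3 CPM in at least 4 libraries were tested with edgeR (4.0.16, R 4.3.3) by the quasi-likelihood F test with TMM factors, the group as the only term and p-values adjusted by Benjamini-Hochberg over all 11189. TMM scaling rests on most genes being level, whereas 59.5% of the tested genes were called in either direction. The factors were 0.935 to 0.983 in Mock and 1.03 to 1.04 in GC7. How far the premise held was not tested. Levels are TMM-scaled CPM (mean ± SD), SE was taken from the log2 fold change and its F value, and log2 ratios used a prior count of 2. At these depths members had 914 to 8157 counts per library. Ratios were tested by exact permutation (Python 3.11.15, numpy 2.4.6). The edgeR test was tested on simulated data. Alternatives were RLE factors, library totals, DESeq2 (1.42.0), limma-voom (limma 3.58.1), no filter, filterByExpr, the replicate number as a block, each library left out in turn, and for ratios a prior count of 0.5.

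The members and lists were chosen with earlier results of these data known. All 9 members and the tested genes of the cycle were named, except for an item that is not reported here, and from the 2 other lists the genes past an adjusted p of 0.01 and a 2-fold change, with Acly, Ssr4 and the genes of nearest profile named for their comparisons. Markers of CD4 T, dendritic, NK, erythroid and stromal cells had summed levels over the 8 libraries of 0.752 to 1.40, 4.51 to 6.42, 1.90 to 3.19, 0.0455 to 0.614 and 30.5 to 56.9 CPM, the last higher in Mock and mostly Pecam1. Of the 4 dendritic markers 2 were tested, with 1 called lower and 1 higher, beside 29.0% and 30.4% of all tested genes. Xcr1 had 7 to 134 counts and Zbtb46 5 to 111, so the narrow range of the dendritic sum does not mean steady levels. A count of protein motifs was not run.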

Additional observations from a re-analysis of the deposited data

Results flagged for a closer look

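In a group of 4 libraries, 1 library was read as standing apart when its gap to the nearest of the others exceeded Dixon's 95% critical share of the group's range, as in 6 of 82 groups of values, where chance alone gives about 4.1. Mock replicate 2 gave 5 of the 6. It was high for Suclg1 (gap of 0.83 of the range), Mdh2 (0.913), Sdhaf4 (0.86) and the log2 ratio of Suclg1 to Suclg2 (0.848). It was low for the TMM factor (0.86). GC7 replicate 4 was low for Sdhaf1 (0.835), a gene whose GC7 libraries otherwise lay close together. Without Mock replicate 2 the log2 fold change of Mdh2 was -0.12 and that of Suclg1 was -0.02, and the part of this library's scaling in these values was not tested.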

How the results depend on the processing

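Of 135 values of single members under the alternatives, 110 kept their direction and their side of the threshold, as did 293 of 311 for the other named genes. No ratio passed under any alternative run, but with an exact test of 4 against 4 libraries adjusted over 10 pairs this says nothing of stability. The count of members called lower (4) was 1 with library totals 2 without a filter, where 28350 genes were tested, and 3 with filterByExpr, and it was 2 to 4 with 1 library left out. Over all genes, the stricter rule called 1189 lower and 772 higher without a filter and 1013 and 601 with filterByExpr, against 593 and 355. With 1 library left out it called 1 to 2 other genes of the cycle higher, since Ogdhl fell below the filter without any 1 of the GC7 libraries, and 2 to 5 genes of anaplerosis and exchange passed as higher. With library totals, Cs was at 0.0569, Idh3a at 0.069, Suclg1 at 0.0142 and Sdhb at 0.0427 on the log2 scale, and the cause of these changes of sign is the shift of all values by the scaling. With 1 library left out, Idh3a ran from -0.0677 to 0.0259, Ogdh from -0.026 to 0.0541 and Sdhb from -0.106 to 0.0176.

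The labels number the libraries 1 to 4 in both groups without saying what a number marks. Deviations of same-numbered libraries correlated at -0.18 to 0.27, and 4 of 8 libraries correlated best with their own number. These values do not settle whether the numbers mark pairs. As the labels do not say so, the main fit did not read them as pairs. With the replicate block 6549 genes were called in place of 6652, of which 6426 were shared, and 2 members were called lower, Idh3g and Sucla2. The lowest count of each member gave a counting error of 1.39% to 3.31%, beside a coefficient of variation between libraries of 1.37% to 9.48%. For Suclg1 the counting error, 3.13%, was larger than the variation in GC7, 1.37%. For Sucla2 it was 3.31%, beside a variation of 4.18% in Mock and 5.04% in GC7. Depth was therefore a limit beside the 4 libraries per group, which limit changes of about the size of their spread.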
